A study of Mus musculus with 8 samples.

Results

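De novo lipogenesis, the synthesis of fatty acids from acetyl-CoA, was examined through 10 genes in mouse liver: the transcription factor genes Srebf1 and Mlxipl and the enzyme and effector genes Acly, Acaca, Acacb, Fasn, Scd1, Elovl6, Me1 and Thrsp. The members were taken by name, from the rows of the count table whose Ensembl mouse gene identifier carries 1 of these symbols. The rule uses no measured value, but the members were chosen with earlier results of these data known. All 10 were found, each in 1 of the 46078 rows. RNA-seq counts were compared between 5 wild-type mice (WT, homozygous for a floxed Rbfox2 allele without Cre) and 3 mice with the same floxed allele and a Cre recombinase driven by the albumin promoter (Rbfox2 KO), which acts in hepatocytes and leaves Rbfox2 intact in the other cells of the liver. Every mouse had 30% (w/v) fructose in its drinking water for 22 weeks and was fasted before the liver was frozen. The study used male mice unless it states otherwise, the labels give neither the age at collection nor the length of the fast, and no liver from mice without fructose was compared. The comparison addresses whether transcripts of the lipogenic program differ under a sugar load when this splicing regulator gene is deleted in hepatocytes.

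The pathway turns surplus carbohydrate into fat. Citrate leaves the mitochondrion and is cleaved to acetyl-CoA, which is carboxylated to malonyl-CoA, condensed to palmitate, lengthened and desaturated. SREBP1c, encoded by Srebf1, is a membrane-bound factor that is cleaved and sent to the nucleus when insulin is high. ChREBP, encoded by Mlxipl, is activated by sugar metabolites, including those of fructose, and both factors raise lipogenic transcripts in the fed liver and are held back during fasting. Both proteins are controlled after transcription as well, so their transcript levels are not a measure of their activity.

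Total counts ran from 24829693 to 37823155 per library. Rbfox2 stood at 14.0, 20.5, 19.0, 17.9 and 23.2 CPM (counts scaled to library size with TMM factors) in WT 1 to 5 and at 6.84, 8.61 and 12.4 CPM in Rbfox2 KO 1 to 3. The groups did not overlap, and the KO mean was 49.0% of the WT mean (log2 fold change -1.03, SE 0.21, edgeR adjusted p = 0.328). The hepatocyte markers summed to 71047 to 77914 CPM in the WT livers and 63203 to 77187 CPM in the KO livers, with Alb as the leading marker in all 8 livers. Rbfox2 KO 1 stood apart from the other libraries. Its 12 pancreatic exocrine markers summed to 451 CPM, led by Amy2a5 at 250.2 CPM, against 4.78 to 17.0 CPM in the WT livers and 4.87 to 5.90 CPM in the other KO libraries. It also had the lowest Cyp2e1, at 2324 CPM against 5164 to 6231 CPM in WT. Values without this library are given where leaving it out turned the direction or moved the value by over 1.5 times, and its part in the results was not tested beyond that.

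Stretches of 4 promoters are shown because each holds motifs defined below, and because Srebf1, Fasn and Pklr recur in the comparisons that follow. Of these, only the Mlxipl and Pklr stretches hold a searched motif that is read by SREBPs or ChREBP. Of the searched motifs, those of Srebf1 and Fasn hold only boxes read by NF-Y or Sp1. SREBP sites that differ from the searched letters were not looked for and may lie in these stretches. They were taken from RefSeq on GRCm38.p6, where 9 of the 10 members had 13 promoter windows in all, each from 250 bases before the start site to 50 after it. Motifs were searched on both strands and are set in capitals in the stretches. The sterol regulatory element core (TCACNCCAC) is read by SREBPs, the E-box (CACGTG) by basic helix-loop-helix factors, and the CCAAT box (CCAAT) and GC box (GGGCGG) by NF-Y and Sp1, which act beside SREBPs. The carbohydrate response element, read by ChREBP, was searched as paired E-box-like elements, CACGNG and CNCGTG, separated by 5 bases. An E-box can lie within such a pair, and CCAAT boxes on opposite strands can share bases.
Srebf1, the most downstream of its 3 starts, chr11:60210472-60210671, minus strand, GC box and inverted CCAAT box in capitals: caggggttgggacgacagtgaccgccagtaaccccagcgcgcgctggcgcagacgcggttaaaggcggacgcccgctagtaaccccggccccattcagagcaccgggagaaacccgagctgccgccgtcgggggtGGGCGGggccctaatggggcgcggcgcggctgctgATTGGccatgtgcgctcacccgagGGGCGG
Mlxipl, chr5:135106691-135106890, plus strand, sterol regulatory element core in capitals: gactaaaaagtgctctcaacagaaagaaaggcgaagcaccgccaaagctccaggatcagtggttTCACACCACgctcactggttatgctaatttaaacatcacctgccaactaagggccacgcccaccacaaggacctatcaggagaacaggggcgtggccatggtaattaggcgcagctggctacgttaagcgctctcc
Fasn, chr11:120824548-120824747, minus strand, CCAAT boxes of both strands in capitals: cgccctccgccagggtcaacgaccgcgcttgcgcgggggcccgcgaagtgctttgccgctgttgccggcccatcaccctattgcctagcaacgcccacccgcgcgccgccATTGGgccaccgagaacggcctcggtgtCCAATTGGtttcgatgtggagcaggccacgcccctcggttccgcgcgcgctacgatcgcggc
Pklr, chr3:89136423-89136571, plus strand, paired E-box-like elements with their spacer and an inverted CCAAT box in capitals: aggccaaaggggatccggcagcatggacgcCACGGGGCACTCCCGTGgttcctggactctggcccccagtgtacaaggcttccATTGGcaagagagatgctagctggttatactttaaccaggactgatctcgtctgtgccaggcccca

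The Srebf1 stretch ends at the base before the start, and its inverted CCAAT box begins 30 bases upstream of that start. Of the 13 member windows, 1 held the sterol regulatory element core, that of Mlxipl, against 1.24% of all 32851 windows. The E-box was found in 1 member window, the other Mlxipl start, against 7.15% of all windows. CCAAT boxes were found in 8 member windows from 7 genes, against 37.4% of all windows, and GC boxes in 5 member windows from 4 genes, against 35.7%. Fasn held 3 CCAAT boxes within 90 bases of its start, and Thrsp held 2, at 79 and 52 bases upstream. The paired E-box-like elements occurred in 0 member windows and in 15 windows overall (0.0457%), 1 of them the liver start of Pklr, the glycolytic pyruvate kinase gene. Acaca and Elovl6 windows held none of the 5 motifs. A match describes letters in this window and is not a measured binding site.

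Per kilobase of exon, Scd1 was far above every other member. Scd1 encodes stearoyl-CoA desaturase, which makes monounsaturated fatty acids, and it averaged 920 ± 279 RPKM (CPM per kilobase of exon, SD, n = 8), or 85.4% to 92.8% of the summed RPKM of the 10 genes in each liver. Me1, the cytosolic malic enzyme that supplies NADPH, followed at 36.8 ± 5.44 RPKM, then Mlxipl at 20.1 ± 2.49 RPKM and Acly at 11.3 ± 1.25 RPKM. The ranges of Scd1, Me1, Mlxipl and Acly over the 8 livers did not overlap one another. Thrsp and Srebf1 followed at 6.10 ± 2.59 and 6.08 ± 1.41 RPKM, and each was above the other in 4 of the 8 livers, so these neighbours did not differ beyond their spread. Elovl6 (4.15 ± 0.874 RPKM) and Fasn (3.13 ± 0.840 RPKM) had overlapping ranges, with Elovl6 higher in 7 of 8 livers. The carboxylase genes closed the order, Acacb at 1.82 ± 0.553 RPKM and Acaca at 1.63 ± 0.211 RPKM. With the longest coding transcript as length, a choice made after the data were seen, these last positions were exchanged, Acaca at 2.93 and Acacb at 1.99 RPKM, because the summed exons of Acaca cover 17074 bases and its longest coding transcript 9513. The other 8 positions were the same under both lengths.

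**Figure D1:**
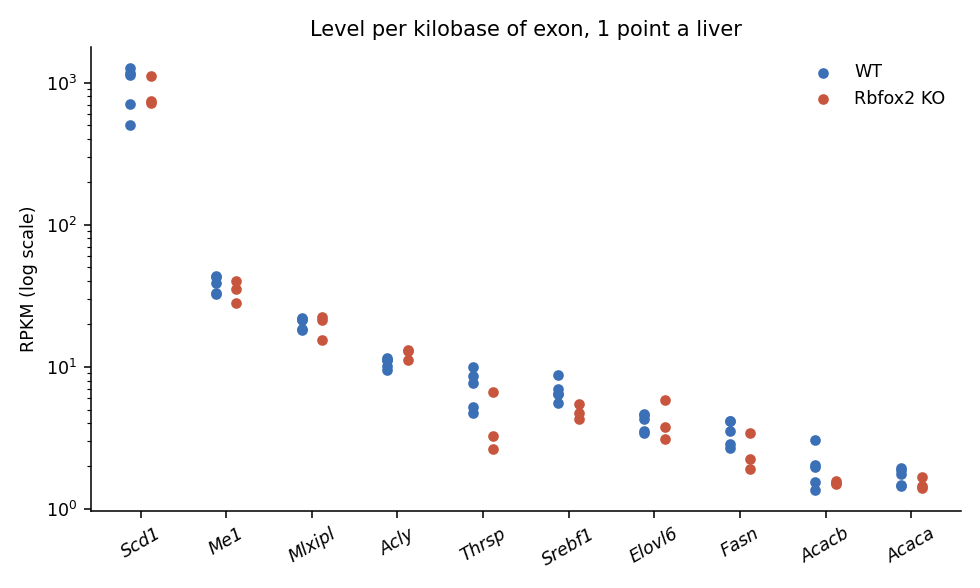
Level of the 10 members per kilobase of exon (RPKM, log axis), 1 point a liver, WT in blue and Rbfox2 KO in red, ordered by the mean of the 8 livers. Scd1 averaged 920 RPKM and the next gene, Me1, 36.8 RPKM, and the carboxylase genes lay lowest.

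Srebf1 (ENSMUSG00000020538, chr11:60199089-60222581 on GRCm38) was the member whose groups separated on the TMM scale. Its levels were 49.5, 36.3, 36.2, 39.0 and 31.3 CPM in WT 1 to 5 and 26.9, 30.8 and 24.1 CPM in Rbfox2 KO 1 to 3. Every KO liver was below every WT liver, with the closest pair, WT 5 and KO 2, 31.3 against 30.8 CPM. That separation depended on the scaling, where the TMM factor was 1.29 for KO 1 and 0.82 for WT 3. Relative to library totals, KO 1 (856 of 24829693 counts) lay above WT 3 (1030 of 34680661 counts), so the groups overlapped. The means were 38.5 ± 6.73 CPM (SD, n = 5) and 27.2 ± 3.32 CPM (SD, n = 3), and the KO mean was 70.8% of the WT mean. The log2 fold change was -0.50 (SE 0.15, 95% interval -0.82 to -0.17), with an unadjusted p of 0.00668 and an adjusted p of 0.809 over all 14654 genes by the edgeR quasi-likelihood test. The exact permutation test of the means gave p = 0.0536, where 0.0179 is the smallest p that 8 livers allow. Without Rbfox2 KO 1 the log2 fold change was -0.49, so this value did not rest on the library with the most pancreatic transcripts. It was -0.40 without WT 1, the WT liver highest for Srebf1 and for the summed pancreatic exocrine markers. Over the 20 alternative fits that were run, it lay between -0.59 and -0.38. Counts per gene cannot separate the Srebf1 transcripts that encode SREBP1a and SREBP1c, which begin at different starts, and 1.17% of the Srebf1 exon length is shared with other genes on the same strand.

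Mlxipl (ENSMUSG00000005373, chr5:135089890-135138382), the ChREBP gene, did not separate. Its levels were 101, 122, 120.3, 118 and 103 CPM in the WT livers and 84.9, 125 and 118 CPM in the KO livers. The lowest and the highest of the 8 livers were both KO livers. The log2 fold change was -0.05 (SE 0.14, 95% interval -0.35 to 0.25, edgeR adjusted p = 1), an interval that holds changes of either sign. It turned to 0.10 without Rbfox2 KO 1 and to 0.04 when libraries were scaled by their totals. Counts per gene cannot separate the transcripts of its 2 promoter starts, so a change in 1 of them could go unseen.

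Acly and Me1 feed the pathway with acetyl-CoA and NADPH. Acly (ENSMUSG00000020917, chr11:100476353-100528000), ATP citrate lyase, was at 53.8, 58.9, 49.9, 59.1 and 61.0 CPM in the WT livers and 68.1, 58.7 and 69.6 CPM in the KO livers. It was the member with the highest fitted fold change, and KO 1 and KO 3 lay above every WT liver while KO 2 lay among them. The log2 fold change was 0.21 (SE 0.10, 95% interval -0.01 to 0.43), with an edgeR adjusted p of 1. Me1 (ENSMUSG00000032418, chr9:86581371-86695953) ran from 124 to 167 CPM in WT, with a median of 151 CPM, and stood at 136, 156 and 108 CPM in the KO livers. Of these KO livers only KO 3 fell outside the WT range. Its log2 fold change was -0.14 (SE 0.15, edgeR adjusted p = 1), and it was -0.01 without KO 3 and -0.27 without KO 2.

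Acaca and Acacb encode the acetyl-CoA carboxylases that make malonyl-CoA, the first in the cytosol for synthesis and the second at the mitochondrial surface, where malonyl-CoA restrains fatty acid oxidation. Acaca (ENSMUSG00000020532, chr11:84129672-84401651) was at 24.7, 31.8, 25.1, 33.2 and 30.0 CPM in the WT livers and 28.8, 24.1 and 24.8 CPM in the KO livers, groups that overlapped (log2 fold change -0.16, SE 0.12, edgeR adjusted p = 1). Without Rbfox2 KO 1 its log2 fold change was -0.25. Acacb (ENSMUSG00000042010, chr5:114146535-114250761) was at 19.0, 13.1, 14.9, 19.5 and 29.4 CPM in the WT livers and 15.1, 14.5 and 14.6 CPM in the KO livers. The KO livers were almost level and lay inside the WT range, whose top was WT 5. Its log2 fold change was -0.38 (SE 0.23, 95% interval -0.90 to 0.13), with an edgeR adjusted p of 1. Without WT 5 it was -0.17. The ratio of Acacb to Acaca CPM was 0.667 ± 0.215 in the WT livers, as a mean with its SD and n = 5, and 0.570 ± 0.0413 with n = 3 in the KO livers, which did not differ beyond the spread (two-sided exact permutation p = 0.571).

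Fasn (ENSMUSG00000025153, chr11:120805846-120824547), fatty acid synthase, was at 31.3, 45.6, 29.5, 38.9 and 45.5 CPM in the WT livers and 37.6, 24.7 and 20.9 CPM in the KO livers. KO 2 and KO 3 lay below every WT liver and KO 1 lay among them. The KO mean was 72.6% of the WT mean, and the log2 fold change was -0.46 (SE 0.22, 95% interval -0.94 to 0.02) with an unadjusted p of 0.0585 and an adjusted p of 1 by edgeR. Without Rbfox2 KO 1 it was -0.75 (edgeR adjusted p = 0.931), and the DESeq2 test on the same 7 livers gave an adjusted p of 0.0807.

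Thrsp (ENSMUSG00000035686, chr7:97412938-97417730), which encodes the thyroid hormone responsive Spot 14 protein of lipogenic tissues, had the lowest fitted fold change of the members. It was at 22.0, 18.7, 11.4, 16.8 and 10.3 CPM in the WT livers and 14.6, 7.16 and 5.82 CPM in the KO livers, which rest on 182 to 595 reads a library. As for Fasn, KO 2 and KO 3 were the lowest 2 livers and KO 1 lay inside the WT range. The KO mean was 58.0% of the WT mean, with a log2 fold change of -0.78 (SE 0.35, 95% interval -1.59 to 0.02), an unadjusted p of 0.0552 and an adjusted p of 1 by edgeR. Without Rbfox2 KO 1 the log2 fold change was -1.30 (edgeR adjusted p = 0.772), and DESeq2 on those 7 livers gave an adjusted p of 0.00756. Of the tests of a group difference run on any member, that was the 1 that passed 0.05 after adjustment, and it was chosen after the data were seen.

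**Figure D2:**
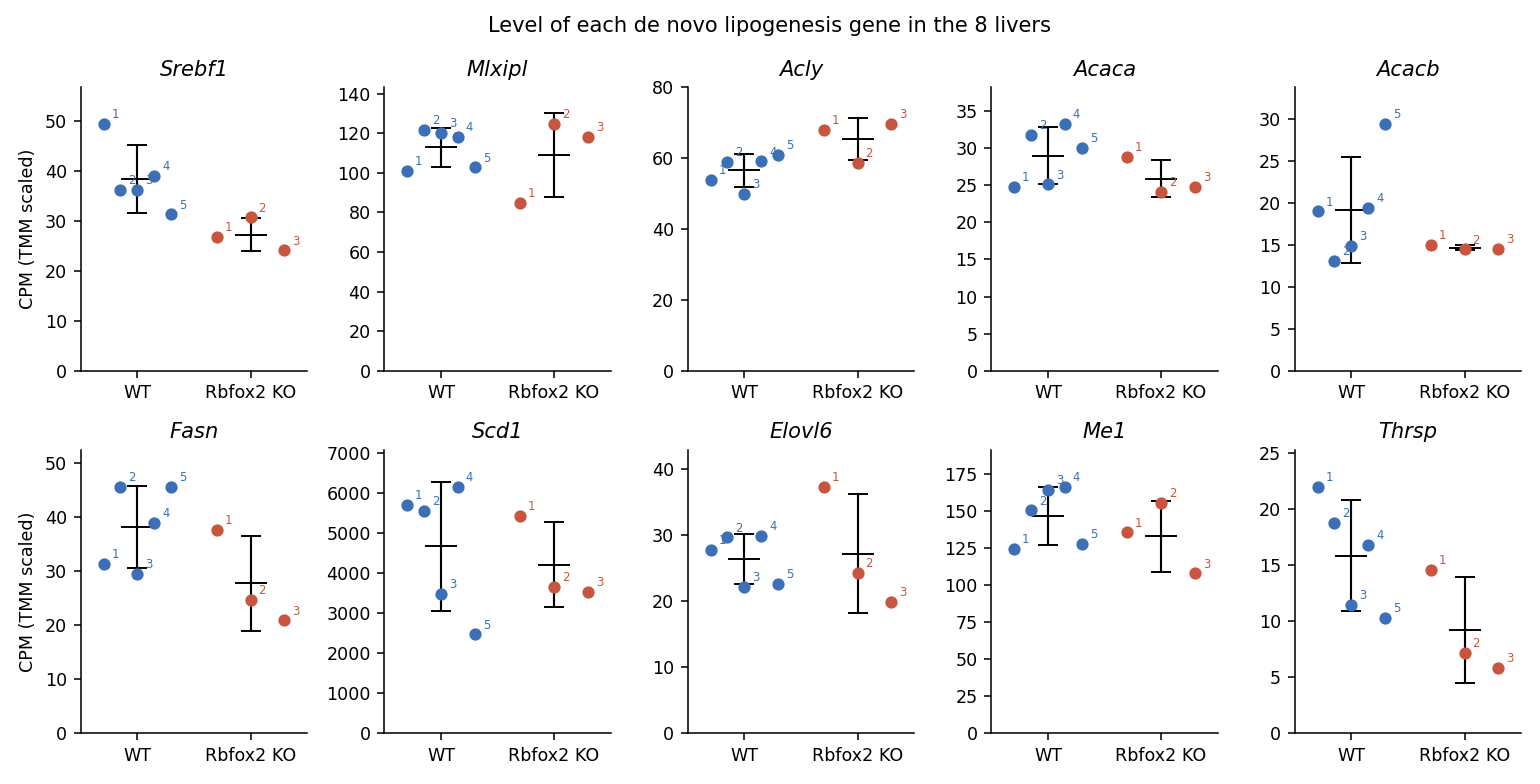
CPM (TMM scaled, axis from 0) of each member in the 5 WT livers (blue) and 3 Rbfox2 KO livers (red), numbered by replicate, with mean and SD in black. Every Srebf1 value in Rbfox2 KO lay below every WT value, while Fasn, Thrsp and Elovl6 were highest among the KO livers in KO 1.

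Elovl6 and Scd1 lengthen and desaturate palmitate. Elovl6 (ENSMUSG00000041220, chr3:129532355-129638495) was at 27.7, 29.7, 22.2, 29.9 and 22.7 CPM in the WT livers and 37.3, 24.3 and 19.9 CPM in the KO livers, so that KO 1 was the highest and KO 3 the lowest of all livers. Its log2 fold change was 0.04 (SE 0.19, edgeR adjusted p = 1) and turned to -0.26 without Rbfox2 KO 1. Scd1 (ENSMUSG00000037071, chr19:44394455-44407879) was at 5699.7, 5564, 3478, 6157 and 2469.8 CPM in the WT livers and 5431, 3656 and 3531 CPM in the KO livers. The WT livers spanned 2.49-fold and contained all KO livers. The log2 fold change was -0.15 (SE 0.30, 95% interval -0.82 to 0.51, edgeR adjusted p = 1), and it was -0.38 without Rbfox2 KO 1 and 0.02 when libraries were scaled by their totals. Leaving out any other 1 liver gave values from -0.31 (without WT 5) to -0.03 (without WT 4). That scaling moved the median of all genes to 0.12, so Scd1 lay below this median under both scalings.

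Over the 10 members, 0 passed an adjusted p of 0.05 by edgeR, and 0 by DESeq2 on all 8 livers. Across all 14654 genes tested edgeR called 0 (0%) and DESeq2 59 (0.403%). At an unadjusted edgeR p under 0.05, 1 member was lower, Srebf1, and 0 were higher, where 2.33% of all genes were lower and 2.41% higher. The same member was the 1 whose groups did not overlap on the TMM scale. On that scale 1.82% of all genes did not overlap with Rbfox2 KO lower and 1.89% with Rbfox2 KO higher. A count of 1 in 10 members is too small to set apart from those shares. The fitted change was below 0 for 8 members and above 0 for 2, Acly and Elovl6, with a median of -0.16 against 0.00 over all genes. Without Rbfox2 KO 1 the median was -0.32 over the members and -0.01 over all genes. With library totals it was -0.02 over the members, 6 of them below 0, and 0.12 over all genes, and 0 members were at an unadjusted edgeR p under 0.05. The members share livers, so their signs are not independent of one another. In bulk liver, fewer hepatocytes and less RNA per hepatocyte cannot be told apart.

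**Figure D3:**
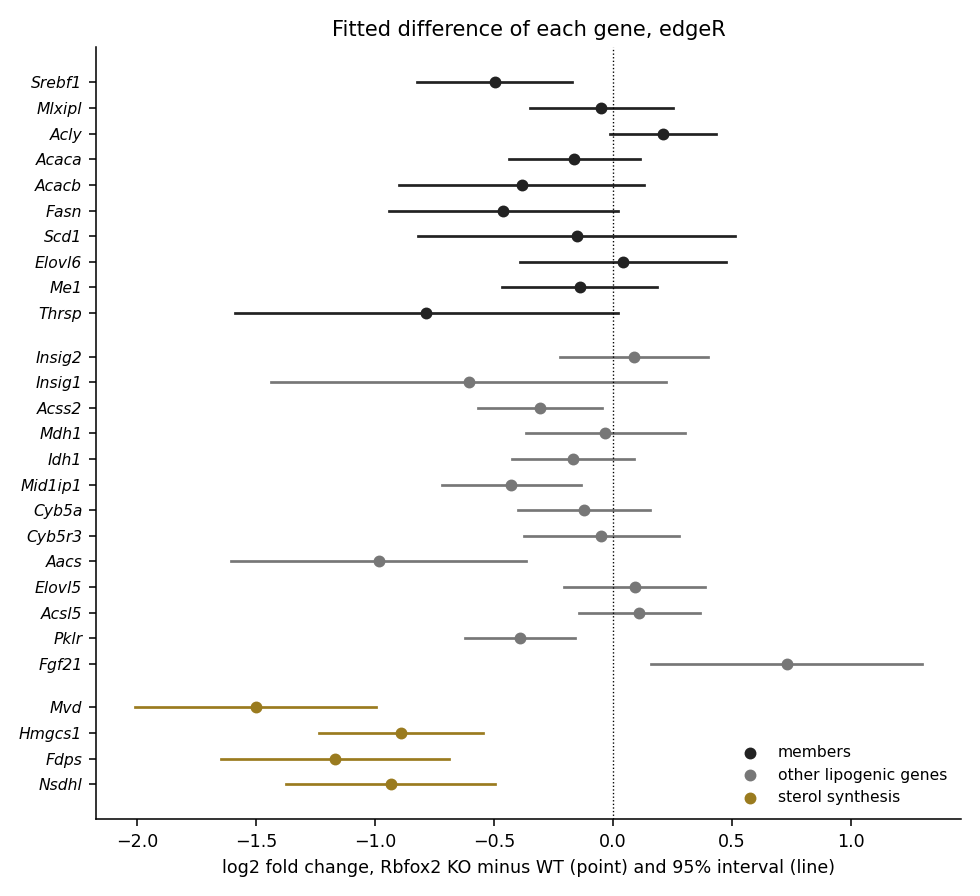
Fitted log2 fold change (Rbfox2 KO minus WT, point) and its 95% interval (line) from edgeR for the 10 members, for the named genes of the 5 other lipogenic lists and for 4 sterol synthesis genes. Of the members, the interval of Srebf1 (-0.82 to -0.17) alone lay wholly on one side of 0, and those of Fasn and Thrsp ended at 0.02.

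How far a difference could be seen depended on how much each gene varied between mice of 1 group. The biological coefficient of variation fitted by edgeR was lowest for Acly, at 0.118, which placed it at the 8.41 percentile of all tested genes. It was highest for Thrsp, at 0.332 (88.4 percentile), and Scd1, at 0.284 (81.6 percentile). Srebf1, Mlxipl, Acaca and Me1 lay between 0.138 and 0.155. Among WT livers alone, the SD was 34.4% of the mean for Scd1, 33.1% for Acacb and 31.1% for Thrsp, against 8.07% for Acly and 8.88% for Mlxipl. Of the 10 fitted changes, that of Acly had the narrowest 95% interval and that of Thrsp the widest.

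Pairs of members were correlated over the 8 livers on log2 CPM. Of 45 pairs, 29 had a positive and 16 a negative Pearson r, with a median of 0.21. Unadjusted exact permutation p-values were under 0.05 for 5 pairs and none of the 45 passed adjustment (smallest adjusted p = 0.286). Acaca and Fasn, successive steps of the pathway, had the highest r, 0.84 (exact permutation p = 0.0115, rho = 0.81 with p = 0.0218), and it was 0.87 without the 2 livers farthest from the Acaca median. Within groups, after centring each on its mean, it was 0.81. Scd1 and Elovl6 had r = 0.77 (exact permutation p = 0.0245, rho = 0.74 with p = 0.0458), and 0.84 without the 2 farthest livers. Scd1 and Thrsp had r = 0.72 (exact permutation p = 0.0448, rho = 0.74 with p = 0.0458), and 0.87 without them.

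The other pairs with an unadjusted p under 0.05 involved Srebf1. Srebf1 and Thrsp had r = 0.77 (exact permutation p = 0.0254, rho = 0.83 with p = 0.0154), which dropped to 0.40 without the 2 farthest livers and to 0.56 within groups, so it rested partly on those livers and on the difference between groups. Srebf1 and Acly had r = -0.78 (exact permutation p = 0.0228, rho = -0.64 with p = 0.0962), and -0.55 within groups. That pair depended on the scaling, since r was -0.03 with library totals. Srebf1 correlated weakly with Fasn, at r = 0.33, and Acaca, at r = 0.10. Mlxipl had a negative r with 7 of the other 9 members on the TMM scale, none of them past adjustment. The pair of Srebf1 and Thrsp was the 1 that passed adjustment when libraries were scaled by their totals, with r = 0.89 (exact permutation p = 0.000744 before adjustment).

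**Figure D4:**
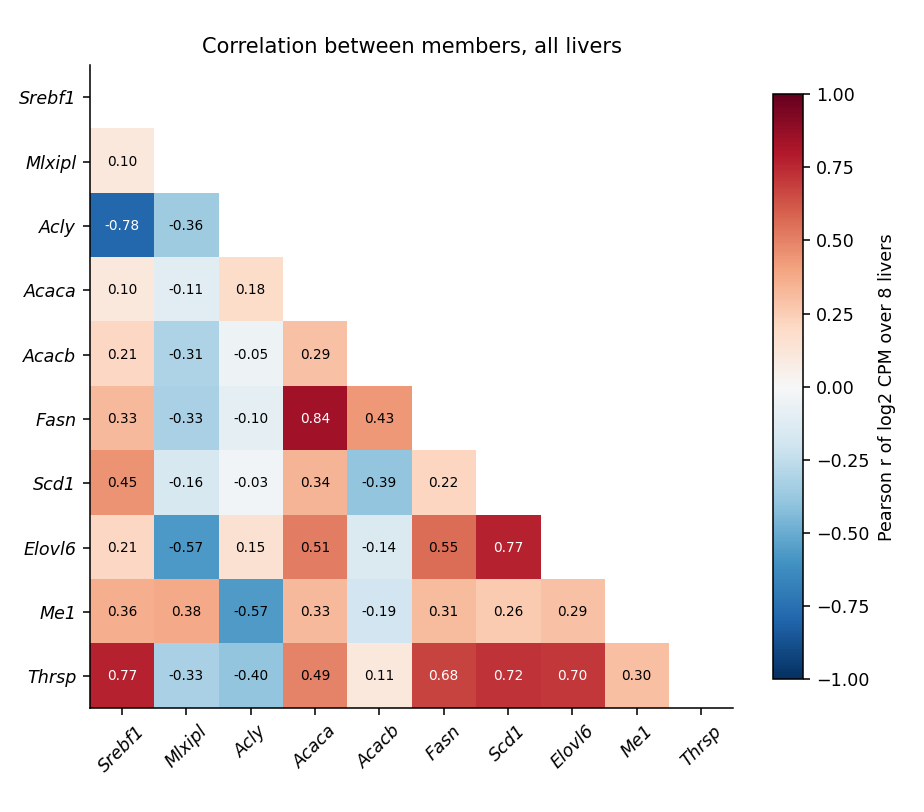
Pearson r of log2 CPM (TMM scaled) between each pair of members over the 8 livers, red positive and blue negative. Acaca with Fasn was highest at 0.84 and Srebf1 with Acly lowest at -0.78, and none of the 45 pairs passed adjustment.

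The mean of the 10 standardised member profiles was highest in WT 4, at 0.72 SD units, and lowest in Rbfox2 KO 3, at -0.78. Thrsp (r = 0.84), Acaca (0.83) and Fasn (0.82) followed it most closely, while Acly (-0.20) and Mlxipl (-0.14) did not. Among the tested genes outside the list whose profile was most like this mean over the 8 livers were Scd3 (r = 0.96), Exd2 (0.94), Creb3l1 (0.93) and Camta1 (0.91). Scd3 is a desaturase paralog of Scd1 and lies beside it in the genome, and how the counting treated reads that fit both is not stated. Scd3 was at 17.8, 28.1, 14.4, 29.8 and 15.6 CPM in the WT livers and 20.1, 15.5 and 11.7 CPM in the KO livers, groups that overlapped. They were picked for their high r among all tested genes outside the list, and their r is a description.

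The surroundings of the pathway were covered by 5 further lists, 49 genes in all, and edgeR called 0 of them and DESeq2 0. At an unadjusted edgeR p under 0.05, 4 were lower (Acss2, Mid1ip1, Aacs and Pklr) and 1 higher (Fgf21), where 2.33% of all genes were lower and 2.41% higher. On the TMM scale the groups of 3 did not overlap, all lower, where 1.82% of all genes did so. Relative to library totals, KO 1 lay above WT 3 for Mid1ip1 (300 against 306 counts) and Pklr (1323 against 1346 counts). The totals of these libraries were 24829693 and 34680661. Their median log2 fold change was -0.02, or -0.04 without Rbfox2 KO 1, against 0.00 over all genes. The 12 genes that control SREBP1c and ChREBP processing and partnership were split evenly, 6 higher and 6 lower, with none under 0.05. Insig1, an endoplasmic reticulum anchor of the SREBP complex, had a log2 fold change of -0.61 (SE 0.36), with KO 1 at 30.2 CPM and the other KO livers at 78.5 and 85.8 CPM, inside the WT range of 54.3 to 124 CPM. Without KO 1 its log2 fold change was -0.27. Insig2, its paralog, ran from 144 to 224 CPM in the WT livers and 189.7 to 205 CPM in the KO livers.

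Of the 9 genes of citrate and NADPH supply, 6 were lower and 3 higher. Acss2, which makes acetyl-CoA from acetate, was at 46.6, 51.4, 43.7, 44.5 and 46.6 CPM in the WT livers and 32.1, 35.8 and 45.003 CPM in the KO livers (log2 fold change -0.31, SE 0.12, edgeR adjusted p = 0.954). Mdh1 and Idh1, the most abundant of this list, had log2 fold changes of -0.03 and -0.17, and of -0.06 and -0.08 without KO 1. Among the 8 genes that modulate carboxylase and desaturase activity, Mid1ip1 stood apart. It encodes a partner of acetyl-CoA carboxylase and a paralog of the Thrsp protein, and was at 11.5, 12.6, 10.8, 10.4 and 10.1 CPM in the WT livers and 9.41, 8.53 and 6.77 CPM in the KO livers. The groups did not overlap on the TMM scale (log2 fold change -0.43, SE 0.13, edgeR adjusted p = 0.864). Cyb5a and Cyb5r3, the electron donors of the desaturases, had log2 fold changes of -0.12 and -0.05, and of -0.04 and -0.14 without KO 1.

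Of the 10 other SREBP1c targets, 7 were lower and 3 higher. Aacs, acetoacetyl-CoA synthetase, which returns ketone bodies to lipid synthesis, was at 10.8, 9.95, 16.8, 15.0 and 16.6 CPM in the WT livers and 7.34, 9.56 and 4.195 CPM in the KO livers, again without overlap. Its KO mean was 50.8% of the WT mean (log2 fold change -0.98, SE 0.28, edgeR adjusted p = 0.786, DESeq2 adjusted p = 0.0741). Elovl5 and Acsl5, the most abundant genes of this list, had log2 fold changes of 0.09 and 0.11, and of -0.03 and 0.13 without KO 1. Of the 10 other ChREBP targets, 3 were lower and 7 higher. Pklr, whose promoter is shown among the stretches, was at 45.3, 48.6, 47.3, 55.5 and 55.2 CPM in the WT livers and 41.5, 38.9 and 35.0 CPM in the KO livers. It was the third gene of these lists without overlap on the TMM scale (log2 fold change -0.39, SE 0.10, edgeR adjusted p = 0.663, DESeq2 adjusted p = 0.102). Fgf21, a liver hormone induced by fasting and by sugar, went the other way, at 11.1, 6.75, 12.4, 10.03 and 15.8 CPM in the WT livers and 24.3, 17.6 and 14.0 CPM in the KO livers (log2 fold change 0.73, SE 0.25, edgeR adjusted p = 0.894). Its log2 fold change was 0.49 without KO 1. None of these genes passed adjustment by either tool.

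Sterol synthesis genes, which answer mainly to SREBP2, were set beside the members because both factors share the same processing machinery. All 18 had a fitted change below 0, with a median of -0.64 (-0.58 without Rbfox2 KO 1). On the TMM scale 9 did not overlap between groups, all lower, against 1.82% of all genes. DESeq2 called 7 of the 18, against 0.403% of all genes, and edgeR 0, with 15 lower at an unadjusted edgeR p under 0.05, against 2.33%. Mvd, mevalonate diphosphate decarboxylase, was at 2.73, 4.27, 3.94, 4.51 and 4.97 CPM in the WT livers and 1.16, 1.42 and 1.73 CPM in the KO livers (log2 fold change -1.50, SE 0.23, edgeR adjusted p = 0.138, DESeq2 adjusted p = 1.25e-05). Hmgcs1, Fdps and Nsdhl had log2 fold changes of -0.89, -1.17 and -0.94. The median of the members (-0.16) was nearer 0 than that of the sterol list. The difference between the lists was not tested. The sterol list, like the others, was chosen with earlier results of these data known, so its shares are a description.

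Genes that respond to fasting were counted because the livers came from fasted mice. Of 12, 10 had a fitted change above 0 and 2 below, with a median of 0.27 (0.30 without Rbfox2 KO 1). Ehhadh, a peroxisomal fatty acid oxidation enzyme, was at 598 to 756 CPM in the WT livers and at 749, 1335 and 1549 CPM in the KO livers (log2 fold change 0.84, SE 0.20, edgeR adjusted p = 0.483, DESeq2 adjusted p = 0.0205). The summed level of the list was 11253 to 12668 CPM in WT, 15574 and 16715 CPM in KO 2 and KO 3, and 8646 CPM in KO 1, so that KO 2 and KO 3 lay above and KO 1 below the WT range, while Fasn and Thrsp were lowest in KO 2 and KO 3. Cyp4a14, a fatty acid omega-hydroxylase gene, had a log2 fold change of 0.31, and of 0.64 without KO 1. Whether the length of the fast differed between livers was not tested. The 12 clock genes, 6 higher and 6 lower, had a median of 0.01, and Tef and Nr1d2 had log2 fold changes of 0.10 and 0.18, and of 0.31 and 0.27 without KO 1. The median of this list was then 0.13.

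Lipogenic genes are also expressed in adipose tissue, so adipocyte markers were summed. Their 10 genes reached 22.0 to 38.0 CPM in WT, 17.3 and 18.6 CPM in KO 2 and KO 3, and 47.9 CPM in KO 1, where Fabp4 led at 33.4 CPM and the defining marker Adipoq was at 0.97 CPM, against 0.07 to 0.41 CPM in WT. Cidea, a lipid droplet protein that fatty hepatocytes also express, was at 7.98, 5.66, 6.64, 19.3 and 3.49 CPM in the WT livers and 2.16, 1.53 and 0.0839 CPM in the KO livers, without overlap (log2 fold change -2.79, SE 0.92, edgeR adjusted p = 0.904). The 10 skeletal muscle markers, led by Acta1 and Tnnt3, summed to 270.4 CPM in KO 1, 327 CPM in WT 4 and 430.0 CPM in WT 5, against 1.42 to 57.6 CPM in the other 5 livers. Acacb was highest in WT 5, at 29.4 CPM. It was at 19.5 CPM in WT 4 and nearly level at 19.0 CPM in WT 1, whose muscle markers summed to 57.6 CPM, while in KO 1 it was at 15.1 CPM. The part of these transcripts in the level of any member was not tested, apart from the values given with 1 liver left out.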

How the data were processed

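The authors aligned poly(A)-selected, strand-specific liver libraries to GRCm38 (mm10) with TopHat2 2.0.11 and counted reads per gene with featureCounts, and the submitters' processing notes also name CASAVA 1.8.4. The deposited values are raw counts per Ensembl gene. The strand setting of the counting and its handling of multiply aligned reads are not given in the sources used here, so overlapping or near-identical genes are uncertain.

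After filterByExpr (14654 genes kept) and TMM scaling, the robust edgeR quasi-likelihood F test (edgeR 4.0.16, R 4.3.3) was fitted to genotype alone, and p-values were adjusted by Benjamini-Hochberg over all genes tested, with 0.05 as the limit. The SE is the size of the log2 fold change divided by the square root of F, and the code was tested on simulated data. Alternatives were DESeq2 1.42.0, limma 3.58.1 (voom), other scalings and filters, a block by sample number, and leaving out each sample. Means of CPM were compared over the 56 ways to place 3 of 8 samples, two-sided. Correlations used log2 CPM (prior count 2) with exact permutation of the pairings. Exon lengths came from GENCODE M21. A floor of 3 counts equals 0.0793 to 0.121 CPM and covers counting error only. The labels name no cages or litters, so p-values measure the spread between these mice.

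The members and lists were chosen with earlier results of these data known. Outside the members, the text names for each list the genes at an unadjusted edgeR p under 0.05 (at most 4, smallest p first), the 2 most abundant where fewer than 2 passed, the 5 genes most like the members' mean profile, and markers that lead their list. The values of 2 genes that this rule names are not reported here.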

Additional observations from a re-analysis of the deposited data

Results flagged for a closer look

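Within WT, 45 sets of 5 values were screened for a library far from the others, and chance alone would mark about 2.25 of them. No member was marked. WT 1 was the lowest of WT for Insig1, at 54.3 CPM, and the highest for Acsl5, at 323 CPM, for Cela1, at 6.94 CPM, and for the summed pancreatic exocrine markers, at 17.0 CPM. WT 4 was the highest for Cidea, at 19.3 CPM. WT 1 was also the highest WT liver for Srebf1 and Thrsp, and without it their log2 fold changes were -0.40 and -0.64. The summed pancreatic exocrine markers of Rbfox2 KO 1 were 451 CPM, above every WT liver. Their part in the members' levels was not tested beyond the values without that liver.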

How the results depend on the processing

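No member passed adjustment by edgeR under any scaling, filter or left-out library that was run. Of 80 member values with 1 library left out, 76 kept their sign and 4 reversed: Elovl6 without WT 3 (-0.01), WT 5 (-0.01) or Rbfox2 KO 1 (-0.26), and Mlxipl without Rbfox2 KO 1 (0.10). Over the left-out libraries Elovl6 ran from -0.26 to 0.22 and Mlxipl from -0.15 to 0.10. Of 120 values under other settings, 113 kept sign and call. Library totals reversed Mlxipl (0.040) and Scd1 (0.017) and put Acly at 125% of WT in place of 116%. Elovl6 reversed with sample quality weights (-0.13) and with the sample number as a replicate block (-0.0015). DESeq2 without Rbfox2 KO 1, chosen after the data were seen, called 1 member, Thrsp (-1.29), and 43 genes, and reversed Mlxipl (0.10) and Elovl6 (-0.26). Genes past the threshold were 0 by edgeR, 6 without a filter, 1 at an adjusted p under 0.1 and 59 by DESeq2. The members' median of -0.16 ran from -0.32 to -0.10 with 1 library left out, lowest without Rbfox2 KO 1, and was -0.02 with library totals. Library totals gave 1 correlated pair in place of 0. Relative to them, the Srebf1 groups overlapped. The cause of these shifts was not tested.

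Samples of equal number correlated at 0.163, 0.0484 and 0.170 in their deviations, so the numbers were not taken as pairs. With the replicate block 0 members and 0 genes passed, 0 other lipogenic genes passed, and the members' median was -0.11. With 3 KO livers, changes of Thrsp and Scd1 smaller than their intervals could not be seen.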
